A study of Mus musculus with 45 samples.

Results

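Liver RNA of mice fed a high-cholesterol diet (HCD) was compared with liver RNA of mice fed a normal diet (Control), across every gene of the deposited table. Its arrays were taken by their sample labels, and it uses 6 of the 45 arrays of the series and all 22080 genes. Control mice were male C57BL/6 on the AIN-93 diet. HCD mice were males of that strain on the AIN-93 diet with 0.5% cholesterol added. Mice of either group were 7 weeks old at the start of feeding, not when killed. Each group held 8 mice, killed on day 43 after 8 h without food and water, and neither group was given a further agent. By the study's methods RNA from 4 mice made up pool A and RNA from the other 4 pool B, and pool C combined A with B. Each group's 3 arrays thus stand on 2 sets of mice. The fit counts pool C as a separate array, which can make p-values too small. The p-values rest on the spread between pools within groups, taken over all 45 arrays of the series and not over these 6 alone. The remaining arrays come from kidney, brain and cholesterol-fed mice given mushroom extracts or simvastatin.

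The liver makes cholesterol, takes it up, exports it into bile and converts it into bile acids. Sterol-sensing factors of the SREBP family switch on synthesis when sterol is scarce, whereas the oxysterol receptor LXR switches on export and, through Srebf1, fatty acid synthesis. The nuclear receptors CAR and PXR control cytochromes and conjugating enzymes that clear drugs, steroids and bile acids. PPAR alpha drives fatty acid oxidation during fasting, and the circadian clock sets a daily rhythm on all of these programs.

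The title and tissue labels name liver, although the description of each of these samples names brain, and the arrays held liver RNA. The mean log2 value of 16 hepatocyte genes, among them Alb, Ttr and Apoa1, lay between 12.31 and 12.39 on the 6 arrays, and none of the 16 was called. Alb, serum albumin, read 13.73, 13.70 and 13.73 in HCD pools A, B and C and 13.72, 13.71 and 13.77 in Control pools A, B and C. The label male held as well, since the Y-linked Ddx3y lay between 8.28 and 8.72 and Xist between 4.39 and 4.85 on the 6 arrays. Array medians lay between 6.77 and 6.84. The correlation of 2 arrays was 0.9942 to 0.9947 within HCD, 0.9928 to 0.9952 within Control and 0.9920 to 0.9939 between the groups.

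Control pool C stood apart from Control pools A and B. In 9 genes it lay more than 1 log2 unit below both, although it is described as their mix, and 1 gene lay as far above both. The 9 genes were Krt4, Defb4, Serpinb3c, Krtdap, Sprr3, Cnfn, Myh8, Cyp17a1 and 2410018L13Rik, named here because their values showed this. In liver HCD the same comparison of pool C with pools A and B gave 2 genes below and 1 above. Pool C lay as far below its A and B in 8 genes in HCD+Gl-1 livers, 5 in HCD+Gl-2 and 30 in HCD+Sim, so this was not particular to Control. Values without Control pool C, or against it alone, are given beside several of the results that moved with it, not beside all of them.

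With a log2 fold change beyond 0.7 in either direction and an adjusted p no higher than 0.05, 54 genes were differentially expressed (DE), 23 higher and 31 lower in HCD. That is 0.245% of the genes tested. Among the 31 lower genes were 7 of the squamous epithelium list and 1 of the skeletal muscle list, tissues that are not part of liver. Several of these were high in Control pools A and B only, as given below. Of the 54, 48 had 3 HCD arrays all above or all below the 3 Control arrays, against 14.9% of all genes, a share that the call itself raises, and 6 had groups that overlapped. The adjusted p alone called 296 genes, 1.34% of those tested, with 127 higher (0.575%) and 169 lower (0.765%). Gene lists are counted under this second rule, and "called" refers to it. The 1.34% called over all genes is the share to set beside each list count. Over all genes the median log2 fold change was -0.0118, and 45.8% of genes lay above 0.

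The number of calls depended on which arrays set the spread. With the 15 liver arrays alone 31 genes passed the adjusted p, and with the 6 compared arrays alone 35 did. With the 15 liver arrays 21 genes were DE, 15 higher and 6 lower, against 23 and 31 with all 45. Quantile normalization of these 15 arrays changed this little, with 24 DE genes, 18 higher and 6 lower. The balance of directions thus depended on the arrays in the fit. When each of the 6 arrays was left out in turn, 35 of the 54 DE genes passed the adjusted p every time. The fits on 45, 15 and 6 arrays called 20 genes in common, 13 higher and 7 lower. The higher ones included Cyp2b9, Cyp3a41b, Srebf1, Abcc3, Abcg5, Abcg8, Aacs, Krt23, Upp2, Fitm1, Pparg and the clone 9130409I23Rik, and the lower ones Fabp5, Gpr110, Slc16a1 and Hopx. The other 4 were Glt1d1, higher in HCD, and Slc16a6, Itih5 and Peg10, lower in HCD, named after their values were seen.

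**Figure D1:**
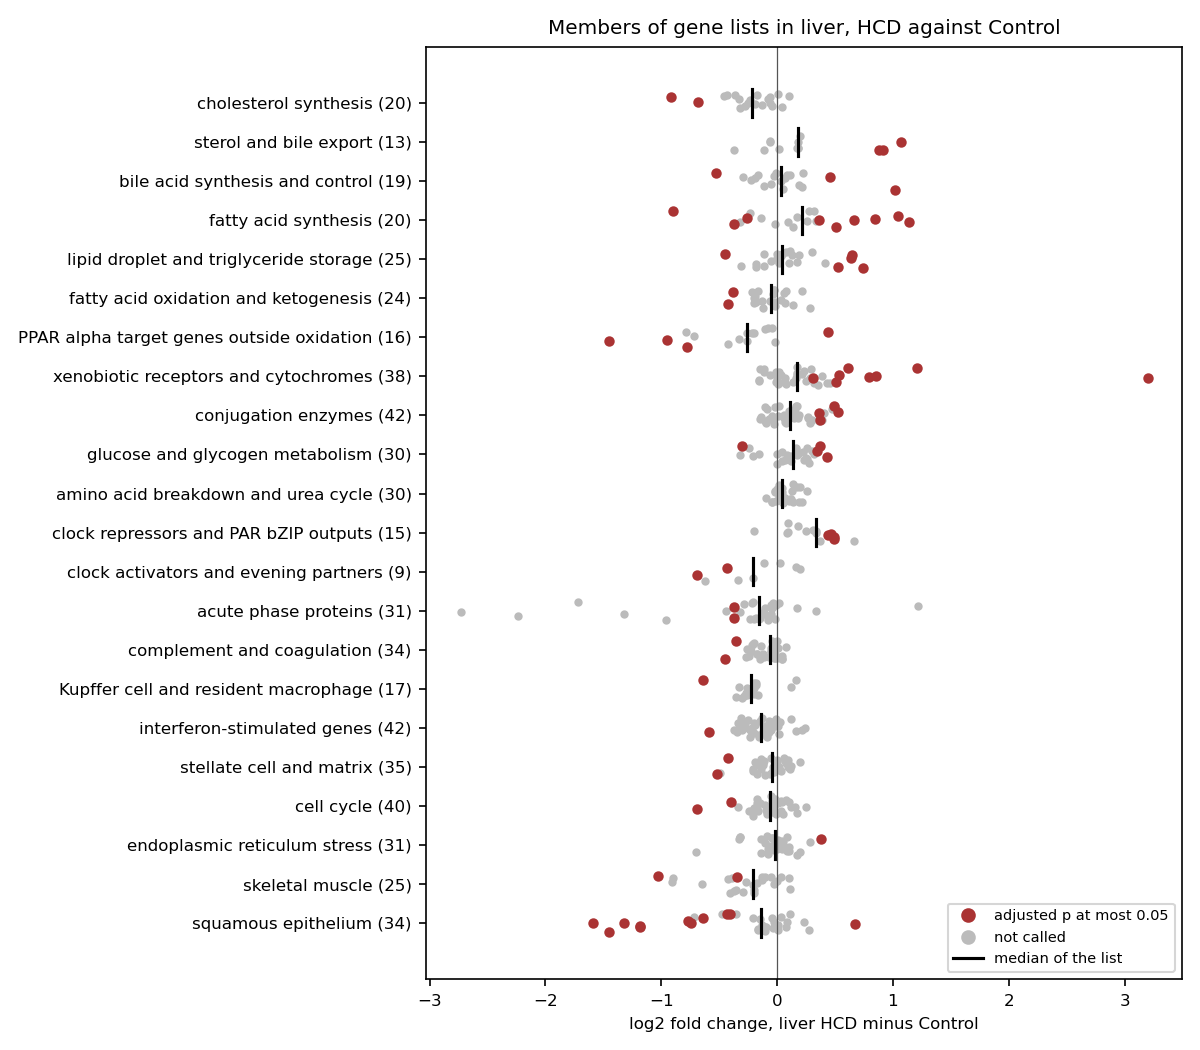
Log2 fold change of liver HCD minus Control for every measured member of 22 gene lists, with the number measured in parentheses. Red points passed an adjusted p of at most 0.05, grey points did not, black bars mark list medians and the vertical place of a point within its row is arbitrary. The xenobiotic, conjugation and clock repressor lists lie mostly to the right of 0, whereas the acute phase, macrophage and PPAR alpha lists lie mostly to the left.

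The largest rise in the liver was in cytochromes that clear foreign compounds, steroids and bile acids. Of 38 measured genes of the xenobiotic receptor and cytochrome list 8 rose and none fell (21.1% called, against 1.34% of all genes). The list's median log2 fold change was 0.18, and 29 of 38 members lay above 0. Cyp2b9, a steroid-hydroxylating cytochrome expressed mainly in female mouse liver, read 8.71, 7.88 and 9.08 in HCD pools A, B and C and 5.28, 5.17 and 5.62 in Control pools A, B and C. The groups did not overlap, and pool B was the lowest array in each group. The log2 fold change was 3.20 ± 0.21 (SE), a 9.19-fold rise (adjusted p = 4.72e-13). With each of the 6 arrays left out in turn it stayed between 2.94 and 3.54.

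Cyp2b10, the classical target of CAR, read 7.20, 6.70 and 7.41 in HCD and 6.25, 6.04 and 6.44 in Control. Every HCD array lay above every Control array, again with pool B lowest on either diet, and the log2 fold change was 0.86 ± 0.15 (adjusted p = 0.000704). Cyp3a41b, a female-biased member of the bile acid and steroid hydroxylating Cyp3a family that is not on the list, read 9.57, 9.46 and 9.79 in HCD and 8.53, 8.38 and 7.66 in Control. Control pool C was the lowest array, and without it the rise was smaller, since the log2 fold change of 1.42 ± 0.16 (adjusted p = 3.18e-07) became 1.15. Its listed relative Cyp3a44 rose by 1.21 ± 0.19 (adjusted p = 0.000185). Cyp3a11, the main PXR target in mouse liver, lay between 12.08 and 12.23 in HCD and between 11.44 and 11.62 in Control, a log2 fold change of 0.61 ± 0.12 (adjusted p = 0.00276).

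Cyp2c38, Cyp2c50 and Cyp2c55, arachidonic acid and drug metabolizing members of the Cyp2c family, and Alas1, which starts the synthesis of the heme that cytochromes carry, completed the 8. Cyp2c38 read 8.49, 8.54 and 8.24 in HCD and 7.86, 8.03 and 7.01 in Control, with Control pool C far below the rest, and its log2 fold change of 0.79 (adjusted p = 0.0147) was 0.48 without that array, as that of Cyp2c50 went from 0.53 to 0.32. Cyp2a22, outside the list, rose by 0.95 ± 0.22 (adjusted p = 0.018). The receptors themselves were not called. Nr1i3, which encodes CAR, changed by 0.18 ± 0.12 (adjusted p = 0.681), and Nr1i2, which encodes PXR, by 0.13 ± 0.10 (adjusted p = 0.744). Probes of near-identical cytochromes can pick up RNA of a neighbouring copy, so which of Cyp3a41b and Cyp3a44, or of the Cyp2b genes, carried a difference is uncertain. With the 15 liver arrays alone 2 of the 38 were called, and with each of the 6 arrays left out in turn 4 to 7 were.

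The promoters of Cyp2b9, Cyp3a11 and Cyp3a44 are shown because these 3 genes rose together and each holds 1 nuclear receptor half-site, AGGTCA, within the 250 bases before its start. Capitals mark the half-site, each sequence runs 5′ to 3′ on the gene's own strand, and all come from RefSeq on GRCm38.p6. Cyp2b9 lies on the plus strand at chr7:26173159-26173408, Cyp3a11 on the minus strand at chr5:145879855-145880104 and Cyp3a44 on the minus strand at chr5:145805875-145806124.
Cyp2b9: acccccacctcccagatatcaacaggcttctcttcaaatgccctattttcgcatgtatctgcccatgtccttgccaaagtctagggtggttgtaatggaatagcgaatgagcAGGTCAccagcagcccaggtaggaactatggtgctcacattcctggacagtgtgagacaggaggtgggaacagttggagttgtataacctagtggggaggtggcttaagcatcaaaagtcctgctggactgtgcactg
Cyp3a11: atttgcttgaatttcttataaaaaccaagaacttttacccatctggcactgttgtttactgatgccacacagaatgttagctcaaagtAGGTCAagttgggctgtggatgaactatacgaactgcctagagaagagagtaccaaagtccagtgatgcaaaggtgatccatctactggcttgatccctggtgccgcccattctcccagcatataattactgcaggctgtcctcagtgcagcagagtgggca
Cyp3a44: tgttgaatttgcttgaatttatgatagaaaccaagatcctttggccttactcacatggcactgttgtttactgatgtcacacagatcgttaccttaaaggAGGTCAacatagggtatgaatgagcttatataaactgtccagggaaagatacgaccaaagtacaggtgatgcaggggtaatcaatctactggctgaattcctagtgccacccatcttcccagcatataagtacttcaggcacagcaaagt
The half-site begins 138, 162 and 150 bases before the respective start. AGGTCA stood on either strand in 16.1% of 124 promoter windows (250 bases before a start to 50 after it) of genes called higher, in 16.2% of 142 windows of genes called lower and in 16.3% of all 32851 windows, so the 3 shares were close. Windows were found for 94 of the 127 higher and 117 of the 169 lower genes. The sterol regulatory element core TCACNCCAC stood in 1.61%, 1.41% and 1.24% of these windows, the E-box CACGTG in 8.06%, 4.93% and 7.15%, and CCAAT in 41.9%, 38.0% and 37.4%. None of these counts was tested.

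**Figure D2:**
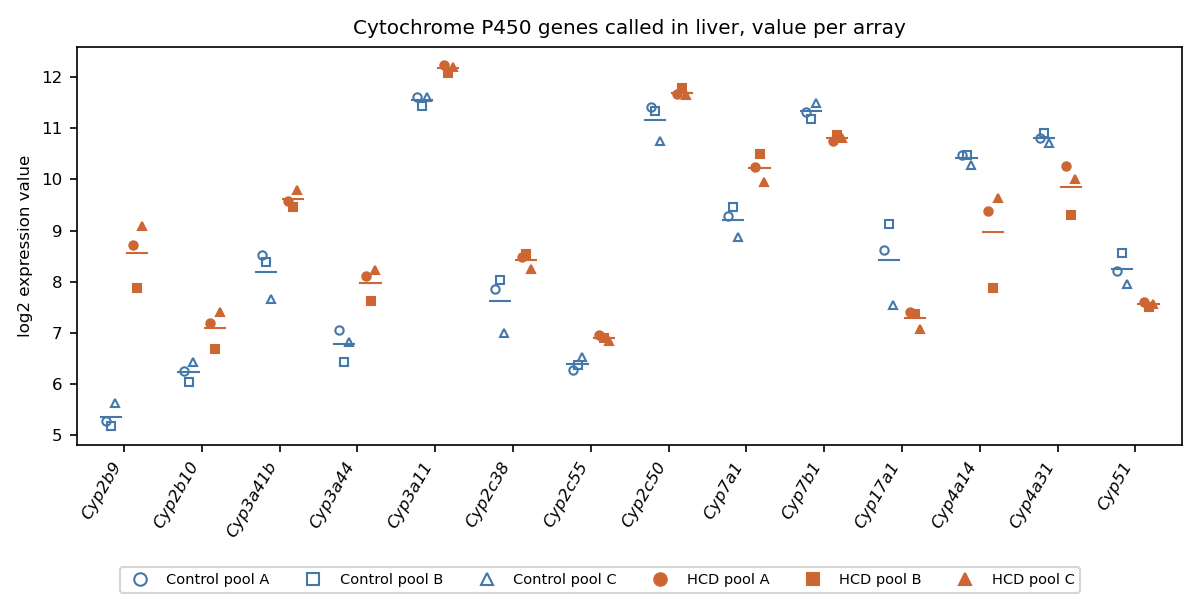
Log2 expression value of 14 of the called cytochrome genes on each of the 6 liver arrays, with open blue symbols for Control, filled orange symbols for HCD, a marker shape per pool and short lines at group means. Cyp2b9 shows the widest gap, from at most 5.62 in Control to at least 7.88 in HCD, while Cyp4a14, Cyp4a31, Cyp17a1, Cyp7b1 and Cyp51 lie lower in HCD.

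Conjugating enzymes, which make the products of cytochromes soluble, moved the same way but by less. Of 42 measured members 4 rose and none fell (9.52% called), 31 lay above 0 and the median was 0.11. The 4 were the glutathione transferases Gstm3 and Gstm4, the epoxide hydrolase Ephx1 and Ugdh, which makes the sugar donor for glucuronidation. Gstm3 read 11.85, 11.56 and 11.82 in HCD and 11.26, 11.13 and 11.38 in Control, a gap in every array and a log2 fold change of 0.49 ± 0.08 (adjusted p = 0.000264). Gstm4 changed by 0.52 ± 0.11 (adjusted p = 0.00481), Ugdh by 0.37 ± 0.08 (adjusted p = 0.00374) and Ephx1 by 0.36 ± 0.10 (adjusted p = 0.0463). Ces1g, a carboxylesterase on the antioxidant list, lay between 10.53 and 10.64 in HCD and between 9.74 and 10.17 in Control. It was the 1 called member of the 26 on that list (3.85%, against 1.34% of all genes). In the fits on liver arrays alone no conjugating enzyme was called.

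Genes that differ between female and male liver did not move as a block. Of 23 female-biased genes 2 rose, Cyp2b9 and Cyp3a44, and 3 fell, and the median was 0.02. Cyp17a1, a steroid hydroxylase and lyase, read 7.41, 7.38 and 7.09 in HCD and 8.62, 9.13 and 7.55 in Control. Control pools A and B stood well above Control pool C, which was close to the HCD arrays. The log2 fold change was -1.14 ± 0.19 (adjusted p = 0.000333), and against Control pool C alone it was -0.26. Abcd2, a peroxisomal carrier of very long chain fatty acids, showed the same shape, with 6.00, 5.86 and 6.01 in HCD and 7.05, 7.47 and 6.41 in Control. Its log2 fold change was -1.02 ± 0.17 (adjusted p = 0.000245), and -0.45 against Control pool C alone. Cyp2b13, a female-biased relative of Cyp2b9, changed by 0.45 ± 0.20 (adjusted p = 0.385). Of 29 male-biased genes 3 fell and none rose, namely the oxysterol hydroxylase Cyp7b1, the retinol dehydrogenase Dhrs9 and the complement regulator Susd4. None of the 7 major urinary protein genes and none of the 22 genes of the growth hormone and IGF axis was called.

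Of 13 sterol and bile export genes 3 rose and none fell (23.1% called, against 1.34% of all genes). The 3 passed the adjusted p in every fit tried except limma's test against the fold change threshold, which called 2 genes in all and for which single genes are not given. Abcg5 and Abcg8 encode the partner subunits of the transporter that moves sterols into bile. Abcg8 read 11.32, 11.37 and 11.36 in HCD and 10.47, 10.52 and 10.41 in Control, and Abcg5 read 11.22, 11.23 and 11.16 in HCD and 10.27, 10.18 and 10.41 in Control. The arrays of a group lay close together and the groups did not overlap. Abcc3, which carries conjugated bile acids and glucuronides back to blood, read 10.87, 10.70 and 10.75 in HCD and 9.74, 9.69 and 9.67 in Control, and its log2 fold change was 1.07 ± 0.08 (adjusted p = 4.73e-12). The LXR target Abca1 changed by 0.18 ± 0.07 (adjusted p = 0.301).

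Abcg5 and Abcg8 are neighbours read in opposite directions, and the 109 bases between their starts at chr17:84683012-84683120 (GRCm38.p6, plus strand, RefSeq) are shown because both genes rose by nearly the same amount.
Abcg5-Abcg8: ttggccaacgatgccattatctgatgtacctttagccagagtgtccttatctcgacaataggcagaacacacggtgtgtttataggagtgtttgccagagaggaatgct
None of the 4 motifs searched lies in this stretch, which is therefore printed without capitals.

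Cyp7a1, the rate-limiting enzyme of bile acid synthesis, read 10.24, 10.49 and 9.96 in HCD and 9.29, 9.47 and 8.88 in Control. Pool B was the highest and pool C the lowest array on either diet, and the log2 fold change was 1.02 ± 0.17 (adjusted p = 0.000264). Akr1d1, a reductase of bile acid and steroid intermediates, rose by 0.45 ± 0.10 (adjusted p = 0.0122). Cyp7b1, an oxysterol hydroxylase of the alternative route to bile acids, fell from 11.32, 11.17 and 11.50 in Control to 10.75, 10.87 and 10.81 in HCD. Its log2 fold change was -0.52 ± 0.12 (adjusted p = 0.00979). Cyp8b1, which makes cholic acid, changed by -0.17 ± 0.11 (adjusted p = 0.677). The bile acid list of 19 genes had a median of 0.04, with 2 members higher and 1 lower. None of the 19 was called with the 15 liver arrays, with the 6 compared arrays or after quantile normalization, where the adjusted p of Cyp7a1 was 0.07, 0.0656 and 0.0776.

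In cholesterol synthesis 2 of 20 enzymes fell and none rose (10.0% called), while the median of the list was -0.22 and 3 members lay above 0. Sqle, squalene epoxidase, read 5.86, 6.14 and 6.14 in HCD and 6.98, 7.31 and 6.61 in Control. HCD lay below Control on every array, with Control pool C nearest, and the log2 fold change was -0.92 ± 0.13 (adjusted p = 4.21e-05). Cyp51, lanosterol demethylase, fell by 0.69 on the log2 scale (adjusted p = 0.000253). The count of the list moved with Control pool C, since 8 members were called lower without it and none against it alone, where the median was 0.03. Soat2, which esterifies cholesterol in hepatocytes, rose by 0.33 ± 0.07 (adjusted p = 0.0112) and was the 1 called gene of 15 in sterol sensing and uptake.

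Fatty acid synthesis held 6 called higher and 3 called lower among 20 genes, with a median of 0.22. Srebf1, the regulator of the pathway, read 10.65, 10.67 and 10.61 in HCD and 9.40, 9.32 and 9.78 in Control, a log2 fold change of 1.14 ± 0.14 (adjusted p = 1.78e-06). The other 5 that rose were Thrsp (1.05), Fasn (0.85), Elovl6 (0.67), Acaca (0.51) and Mlxipl (0.36, all log2 fold changes). Among the 6 fits that left out an array Fasn was called in 2, Thrsp in 3, Elovl6 and Mlxipl in 4 and Acaca in 5. The 3 that fell do other work, since G6pdx supplies NADPH from the pentose phosphate route and Fads1 and Fads2 desaturate polyunsaturated fatty acids. G6pdx read 7.67, 8.09 and 7.17 in HCD and 8.54, 8.95 and 8.12 in Control, Fads1 changed by -0.38 ± 0.07 (adjusted p = 0.0014) and Fads2 by -0.26 ± 0.06 (adjusted p = 0.0133). Scd1, stearoyl-CoA desaturase, was near the top of the scale at 13.37 to 13.56 on all 6 arrays and changed by 0.09 ± 0.09 (adjusted p = 0.818). With Control pool C left out 2 members were called higher and 3 lower. Aacs, which turns acetoacetate into a precursor of lipids, rose by 0.88 ± 0.10 (adjusted p = 1.75e-07).

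Lipid droplet genes split as well. Of 25 genes 4 rose, namely Fitm1 and Mogat1, which act in droplet and triglyceride formation (Mogat1 0.52, and 0.33 without Control pool B), the fatty acid translocase Cd36 and the adipogenic receptor Pparg, and the droplet coat gene Plin2 fell. Fitm1 read 10.68, 10.62 and 10.69 in HCD and 9.95, 9.87 and 9.94 in Control, with little spread in either group and a difference of 0.74 ± 0.09 on the log2 scale (adjusted p = 1.78e-06). Pparg lay between 7.65 and 7.71 in HCD and between 6.93 and 7.14 in Control, and Cd36 between 8.54 and 8.83 in HCD and between 7.97 and 8.21 in Control. Lpl, lipoprotein lipase, lay between 8.82 and 8.92 in HCD and between 8.10 and 8.51 in Control (log2 fold change 0.59 ± 0.11, adjusted p = 0.00112). Plin2 changed by -0.45 ± 0.11 (adjusted p = 0.0226) and was called in 1 of the 6 fits that left out an array. Fabp5, a fatty acid binding protein of epidermis and macrophages, moved most among lipid genes in the other direction, with 7.83, 8.01 and 7.46 in HCD and 9.30, 9.38 and 9.32 in Control and a log2 fold change of -1.57 ± 0.14 (adjusted p = 8.65e-10).

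Targets of PPAR alpha were mostly lower in HCD. Outside fatty acid oxidation 3 of 16 genes fell, 1 rose and 15 lay below 0, with a median of -0.26. Cyp4a14, a fatty acid omega-hydroxylase, read 9.38, 7.88 and 9.64 in HCD and 10.48, 10.47 and 10.29 in Control. HCD pool B was far below the other arrays, and without it the log2 fold change of -1.45 ± 0.33 (adjusted p = 0.0125) was -0.91. Cyp4a31 followed the same order, with 10.26, 9.30 and 10.00 in HCD and 10.80, 10.90 and 10.72 in Control, and its near copies Cyp4a10 and Cyp4a32 were not called (adjusted p = 0.0984 and 0.06). Pdk4, which restrains glucose oxidation in fasting, read 6.38, 6.49 and 6.15 in HCD and 7.14, 7.27 and 6.96 in Control, a log2 fold change of -0.78 ± 0.17 (adjusted p = 0.00979). With HCD pool B or Control pool B left out 1 of the 16 was called lower. Aldh3a2, an oxidizer of fatty aldehydes, was the gene that rose (0.44 ± 0.08, adjusted p = 0.00226).

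Fatty acid oxidation and ketogenesis had 2 called lower of 24 and a median of -0.05. The 2 were carnitine acyltransferases. Cpt1a, which admits fatty acids to mitochondria, lay between 10.87 and 10.90 in HCD and between 11.23 and 11.33 in Control, a log2 fold change of -0.38 ± 0.07 (adjusted p = 0.00291). Crat changed by -0.42 ± 0.11 (adjusted p = 0.0327), and the carnitine transporter Slc22a5 by -0.50 ± 0.12 (adjusted p = 0.013). With each of the 6 arrays left out in turn Crat was called in 1 fit and Slc22a5 in 3. Slc16a1, which carries lactate and ketone bodies, read 7.99, 7.73 and 8.16 in HCD and 8.70, 8.64 and 8.77 in Control (log2 fold change -0.74 ± 0.11, adjusted p = 8.15e-05). In glucose and glycogen metabolism 3 of 30 genes rose, the glycogen enzymes Ugp2 and Gbe1 and the triokinase Dak, and Ldha fell, with 25 of 30 above 0 and a median of 0.14. With each of the 6 arrays left out in turn 0 to 2 of the 30 were called higher, with 0 without Control pool C, and Gbe1 was not called in any of these fits.

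Acute phase proteins, which hepatocytes secrete under inflammatory signals, were lower in HCD on most arrays, though few passed the test. Of 31 genes 18 had every HCD array below every Control array and 1 had the reverse, together 61.3% against 14.9% of all genes, and 27 lay below 0 (median -0.16). Only 2 members were called (6.45%, against 1.34% of all genes). They were Lbp, which binds lipopolysaccharide, and Stat3, a signalling factor on the list that relays interleukin-6 signals and is not a secreted protein. Stat3 read 9.46, 9.48 and 9.51 in HCD and 9.86, 9.79 and 9.92 in Control (log2 fold change -0.37 ± 0.07, adjusted p = 0.00141), and Lbp changed by -0.37 ± 0.10 (adjusted p = 0.0468). Lbp was not called in any fit that left out 1 of the 6 arrays.

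The largest differences of the list were outside the calls. Saa1, serum amyloid A, read 8.08, 7.83 and 8.21 in HCD and 10.69, 8.87 and 11.28 in Control, and Saa2 read 7.29, 6.91 and 7.48 in HCD and 10.57, 8.40 and 10.91 in Control. The groups did not overlap, but Control pool B lay far below the other Control arrays. The log2 fold changes were -2.24 ± 0.79 for Saa1 (adjusted p = 0.212) and -2.73 ± 0.86 for Saa2 (adjusted p = 0.128). Orm2, an orosomucoid, read 7.72, 7.62 and 7.32 in HCD and 9.17, 8.87 and 9.78 in Control, and Lcn2, a siderophore-binding lipocalin, 9.34, 9.07 and 9.26 in HCD and 10.60, 10.33 and 10.71 in Control. With only the 6 compared arrays in the fit Lcn2 passed (adjusted p = 0.00267), as did Orm2 (adjusted p = 0.0157) and the pentraxin Apcs (adjusted p = 0.0123). The standard error of Lcn2 was 0.607 in the fit on 45 arrays and 0.115 in the fit on 6. Orm3 ran the other way, with 7.80, 7.04 and 7.30 in HCD and 6.04, 5.92 and 6.52 in Control (adjusted p = 0.0978).

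Fgl1, a fibrinogen-like protein secreted by hepatocytes, read 10.19, 10.38 and 10.00 in HCD and 11.35, 11.29 and 11.20 in Control, a log2 fold change of -1.09 ± 0.22 (adjusted p = 0.00291). The metallothioneins Mt1 and Mt2, which bind zinc and copper, were the 2 called genes of 24 in metal and iron handling (8.33%). Mt2 read 9.93, 9.27 and 10.41 in HCD and 10.85, 10.78 and 11.02 in Control, and Mt1 read 11.19, 10.83 and 11.40 in HCD and 11.89, 11.81 and 12.10 in Control. Pool B was the lowest array and pool C the highest on either diet, and no groups overlapped. The log2 fold changes were -1.02 ± 0.16 for Mt2 (adjusted p = 0.000185) and -0.79 ± 0.10 for Mt1 (adjusted p = 5.98e-06). In complement and coagulation Mbl1 and C8b fell among 34 genes (5.88% called), and 5 of the 34 lay above 0. With each of the 6 arrays left out in turn Mbl1 was called in none of the fits and C8b in 3.

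**Figure D3:**
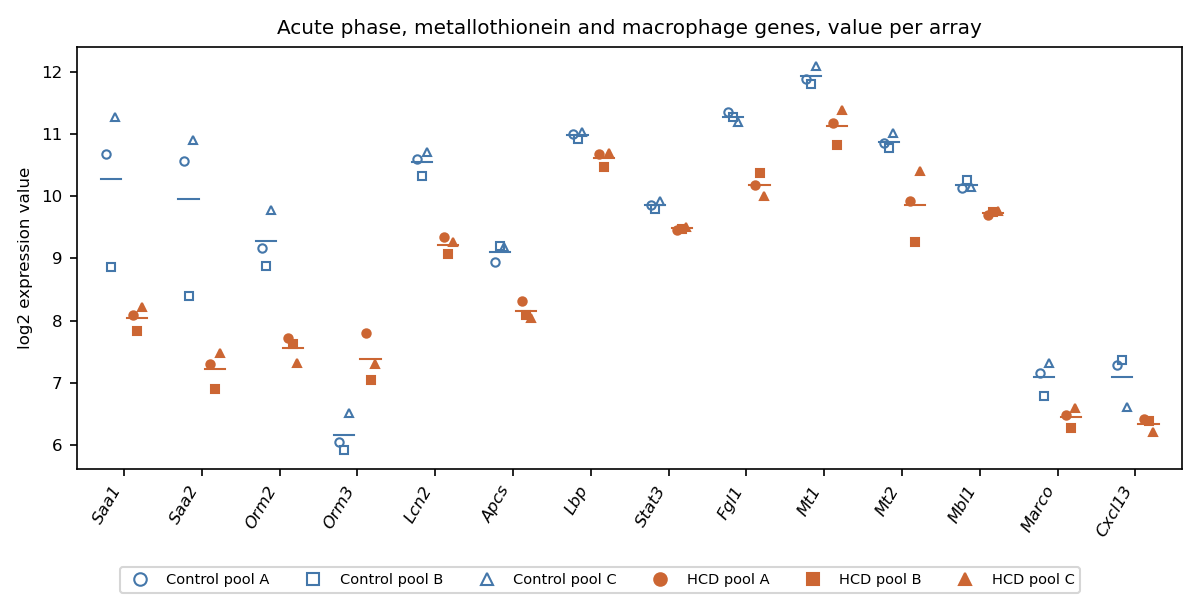
Log2 expression value of 14 acute phase, metallothionein, complement and macrophage genes on the 6 liver arrays, with symbols as in the plot of cytochromes. Saa1 and Saa2 range from 8.87 and 8.40 to 11.28 and 10.91 among the Control arrays and vary little among the HCD arrays, and Orm3 is the gene that lies higher in HCD.

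Of 17 Kupffer cell genes 1 fell and none rose (5.88% called, against 1.34% of all genes), 15 lay below 0 and the median was -0.22. The gene called was Marco, a scavenger receptor. In bulk tissue fewer cells of a type and less RNA per cell cannot be told apart. Marco read 6.48, 6.27 and 6.59 in HCD and 7.15, 6.79 and 7.31 in Control (log2 fold change -0.64 ± 0.11, adjusted p = 0.000837), while Clec4f, which marks Kupffer cells most closely, changed by -0.20 ± 0.11 (adjusted p = 0.564). The mean of the 17 genes was 8.10 to 8.15 in HCD and 8.25 to 8.46 in Control. Of 20 markers of recruited and lipid-laden macrophages only Lpl was called, and it rose. The chemokines Cxcl13 and Cxcl14 fell among 30 cytokine and chemokine genes (6.67% called). Cxcl13, which attracts B cells, read 6.42, 6.38 and 6.20 in HCD and 7.29, 7.37 and 6.60 in Control. Its log2 fold change of -0.75 was -0.27 against Control pool C alone. Of 42 interferon-stimulated genes Mx2 fell and none rose (2.38% called, against 1.34% of all genes). Of the 42, 35 lay at or below 0, while over all genes 45.8% lay above 0. No marker of T, B and natural killer cells (20), neutrophils (13), liver endothelium (16) or bile duct epithelium (15) was called.

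In stellate cell and matrix genes 2 of 35 fell (5.71% called, against 1.34% of all genes). The 2 were the smooth muscle actin Acta2 and the matrix metalloproteinase Mmp14. Acta2 read 7.65, 7.56 and 7.76 in HCD and 8.06, 8.38 and 8.10 in Control (log2 fold change -0.52 ± 0.09, adjusted p = 0.000536). The collagen gene Col1a1 changed by -0.21 ± 0.08 (adjusted p = 0.274), and the median of the list was -0.04. Among 40 cell cycle genes E2f8 and Mki67 fell and none rose (5.0% called). E2f8, a transcription factor of polyploid hepatocytes, read 7.39, 6.81 and 7.30 in HCD and 8.16, 8.18 and 7.24 in Control, so that Control pool C lay among the HCD arrays. The log2 fold change of E2f8 was -0.69, and -0.08 against Control pool C alone, and the gene was called in 2 of the 6 fits that left out an array.

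Of 15 clock repressors and output genes, many of which peak toward evening in mouse liver, 4 rose and none fell, 14 lay above 0 and the median was 0.34. Per3, a period repressor, read 8.10, 8.02 and 7.85 in HCD and 7.44, 7.35 and 7.71 in Control, a log2 fold change of 0.49 ± 0.10 (adjusted p = 0.00242). Per2 read 8.30, 8.37 and 8.21 in HCD and 7.79, 7.62 and 7.99 in Control (0.50 ± 0.11, adjusted p = 0.00873). In each, Control pool C was the Control array nearest to HCD, and against it alone the log2 fold changes were 0.28 for Per3 and 0.31 for Per2.

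Dbp, an output transcription factor, showed this more clearly, with 10.56, 10.69 and 10.55 in HCD and 10.01, 9.89 and 10.49 in Control (0.47 ± 0.12, adjusted p = 0.0317, and 0.11 against Control pool C alone), and the deubiquitinase Usp2 overlapped between groups (0.44, with 0.25 without Control pool B and 0.08 against Control pool C alone). Of 9 genes on the list named clock activators and evening partners 2 fell, Arntl and E2f8, and 3 lay above 0. The name does not state when each member peaks. E2f8, which is also the cell cycle gene given above, was -0.08 against Control pool C alone. Arntl, the activator known as BMAL1, read 6.63, 6.74 and 6.84 in HCD and 7.21, 7.10 and 7.21 in Control (-0.44 ± 0.09, adjusted p = 0.00695). Npas2, its partner, changed by -0.62 ± 0.19 (adjusted p = 0.101) and Nr1d1 by 0.25 ± 0.09 (adjusted p = 0.181). Against Control pool C alone the median of the repressor and output list was 0.10 with no member called, without Control pool C it was 0.36 with 6 called, and without Control pool B or HCD pool B 1 was called. None of the 15 was called in the fits on liver arrays alone.

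Squamous epithelium and skeletal muscle are not part of liver. The mean of the squamous list was higher in 2 of the 3 Control arrays than in HCD, and that of the muscle list in all 3. Of 34 squamous genes 10 were called lower and 1 higher (32.4%), and of 25 muscle genes Myh1 and Tnni2 were called lower. Other genes of these tissues outside the 2 lists were called lower as well, such as the DE genes Asprv1 and Myh8. Dsg1a, a desmosomal cadherin, was the squamous gene that rose (0.67, adjusted p = 0.00695). Krt4, a keratin of the oesophagus lining, read 6.02, 5.62 and 5.85 in HCD and 7.80, 8.63 and 5.82 in Control. Control pools A and B carried the difference, and Control pool C lay inside the HCD range. The mean of the 34 squamous genes was 6.23, 6.42 and 5.84 in Control pools A, B and C and 5.82 to 5.86 in HCD, and that of the 25 muscle genes was 6.65 to 6.8 in Control and 6.36 to 6.51 in HCD. Defb4, Sprr3, Cnfn, Myh8 and Serpinb12, all DE, overlapped between groups in the same way as Krt4, and Krt13 lay at 5.54 to 5.81 in HCD and 6.8, 7.72 and 6.02 in Control. Against Control pool C alone no squamous gene was called lower, 1 was called higher, and the median of the list was 0.01 in place of -0.14. Without Control pool B 3 were called lower, and the log2 fold change of Krt4 went from -1.59 to -0.98 and that of Krt13 from -1.19 to -0.75. Myh1, a fast myosin of skeletal muscle, read 5.03, 5.47 and 5.16 in HCD and 6.66, 6.46 and 5.64 in Control, and its log2 fold change of -1.03 was -0.42 against Control pool C alone. The part of these genes in the other results was not tested. Krt23, a keratin of hepatocytes and ducts under stress, differed from the squamous keratins, with 6.89, 6.65 and 6.75 in HCD and 5.98, 5.67 and 6.12 in Control (log2 fold change 0.84 ± 0.12, adjusted p = 4.35e-05).

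**Figure D4:**
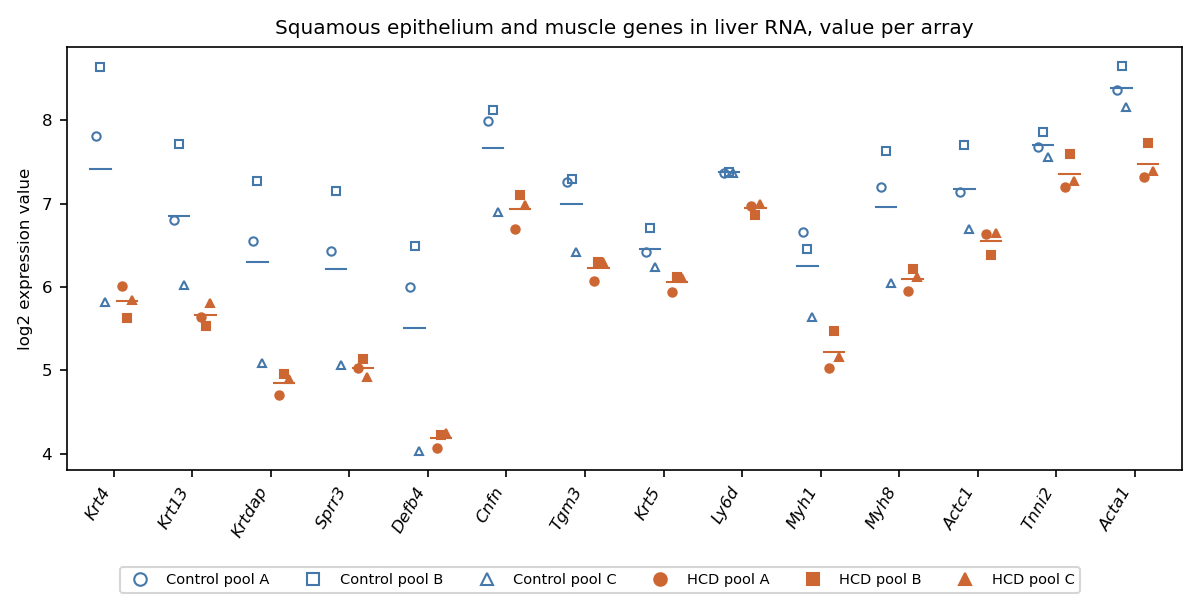
Log2 expression value of 9 squamous epithelium genes and 5 muscle genes on the 6 liver arrays, with symbols as in the plot of cytochromes. For Krt4, Krtdap, Sprr3, Defb4, Cnfn and Myh8 the triangle of Control pool C lies at or near the HCD arrays, while Control pools A and B lie above.

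Several DE genes belong to none of the lists written as gene names. Moxd1, a copper monooxygenase related to dopamine beta-hydroxylase, read 7.88, 7.59 and 7.96 in HCD and 10.15, 10.00 and 10.31 in Control. It was lower on every HCD array. The log2 fold change was -2.34 ± 0.42, a 5.06-fold fall (adjusted p = 0.000836), and it lay between -2.41 and -2.23 whichever array was dropped. The probe set of Mir122, the locus of the most abundant hepatocyte microRNA, read 7.58, 7.60 and 6.40 in HCD and 8.39, 8.48 and 8.03 in Control. HCD pool C was the lowest, and the log2 fold change of -1.11 ± 0.23 (adjusted p = 0.00618) was -0.71 without it. The value stands for the locus and not for the mature microRNA.

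Gpr110, an adhesion G protein-coupled receptor, read 7.57, 7.34 and 7.35 in HCD and 8.75, 8.78 and 8.18 in Control (-1.14 ± 0.18, adjusted p = 0.000181). Slc3a1, a subunit of the cystine and dibasic amino acid transporter, read 9.35, 9.20 and 9.27 in HCD and 10.35, 10.23 and 10.16 in Control (-0.97 ± 0.17, adjusted p = 0.000892). The secreted trefoil factor Tff3 fell by 0.89 on the log2 scale (adjusted p = 0.000264). None of these 3 overlapped between groups. Among the genes that rose, Adam11, a catalytically inactive member of its protease family, read 8.95, 8.69 and 8.87 in HCD and 7.61, 7.26 and 8.15 in Control (1.16 ± 0.13, adjusted p = 2.36e-07, and 0.68 against Control pool C alone). Upp2, a uridine phosphorylase, read 11.47, 11.61 and 11.33 in HCD and 10.76, 10.70 and 10.53 in Control (0.81 ± 0.08, adjusted p = 2e-08). Spry4, an inhibitor of growth factor signalling, changed by 0.75 ± 0.12 (adjusted p = 0.000222), and Rgs16, a brake on G protein signalling, by 0.71 ± 0.15 (adjusted p = 0.00525).

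Several lists held no call, though with 1.34% of all genes called few calls could fall in lists of their size. These were amino acid breakdown and the urea cycle (30 genes), one-carbon and choline metabolism (22), pericentral genes (16), the mitochondrial respiratory chain (79), cytosolic ribosomal proteins (81), mitochondrial ribosomal proteins (73), proteasome subunits (39), cytosolic heat shock (18), p53 targets (20), lysosome and autophagy (22) and immediate early genes (29). Their medians lay between -0.07 and 0.06, but some leaned to one side. Above 0 lay 10 of 81 cytosolic ribosomal, 25 of 29 immediate early and 23 of 30 amino acid genes, against 45.8% of all genes. In endoplasmic reticulum stress Chac1, a glutathione-degrading enzyme, was the 1 called gene of 31 (3.23%), and it rose by 0.38 on the log2 scale. Of 16 periportal genes Ctsc and Cdh1 fell, of 20 lipoprotein genes Apom fell, and of 25 retinoid genes Aldh1a7 rose and Dhrs9 fell. Of 27 organic ion and solute transporters 3 fell (11.1% called), Slc16a1, Slc22a5 and Slc41a2. With each of the 6 arrays left out in turn Aldh1a7 was called in none of the fits, and Apom, Chac1 and Slc41a2 in 1 each. Dhrs9 was called in 2 of these fits, Slc22a5 in 3, and Ctsc, Cdh1 and Slc16a1 in all 6. No marker of exocrine pancreas (25), pancreatic islets (8), red blood cells (10) or class II antigen presentation (7) was called, and of 14 adipose genes Thrsp was called.

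The liver response was set against the responses of kidney and brain to the same diet, which share no array with it. Each diet group held 8 mice in all, so its liver, kidney and brain pools stand on the same mice, and the test treats the tissues as independent. In brain Control pool C lay more than 1 log2 unit below pools A and B in 94 genes and above both in 16, and its part in the brain difference was not tested beyond leaving pool C out. The difference passed the adjusted p in 58 genes for kidney (0.263% of those tested) and in 72 for brain (0.326%). Of the 54 DE genes 20 differed from kidney, 24 from brain and 18 from both. Picking the 54 by their liver difference itself raises these shares. The 18 were Cyp2b9, Cyp3a41b, Adam11, Srebf1, Gm10639, Abcc3, Abcg5, Abcg8, Aacs, Krt23, 9130409I23Rik, Upp2, Spry4, Gm13139, Mt1, Sqle, Krt13 and Fabp5. With pools A and B alone it passed in 113 genes for kidney and 658 for brain. In kidney none of the 54 was called, and in brain Fitm1 was, at 0.55 on the log2 scale (adjusted p = 0.00196). Few genes were called in these tissues at all, 29 of 22080 in kidney and 12 in brain, so few of the 54 could be. Pdk4 and Cyp4a14 stood at -0.65 and -0.95 in kidney, below 0 as in liver, and for neither was the difference from kidney called.

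**Figure D5:**
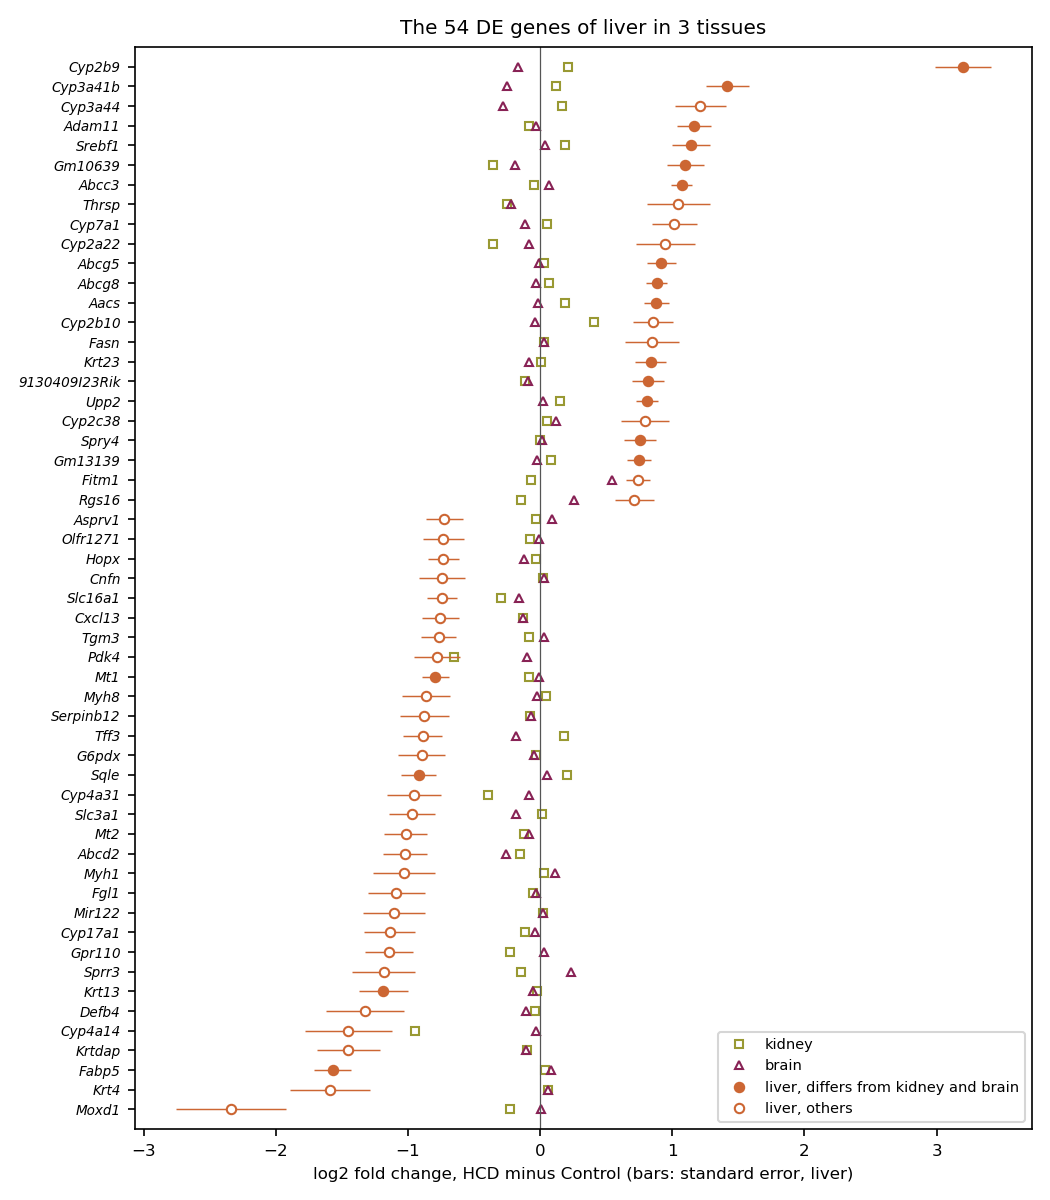
Log2 fold change of HCD minus Control in liver (circles with standard errors), kidney (squares) and brain (triangles) for the 54 genes that were DE in liver, ordered by the liver value. Filled circles mark the 18 genes whose liver response differed from both other tissues, and most kidney and brain values lie near 0.

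The levels of the leading genes in the other cholesterol-fed livers differed from gene to gene. These groups share no array with HCD or Control, and only levels are given. Cyp2b9 was 5.36 ± 0.24 (SD, n = 3) in Control, 8.56 ± 0.62 in HCD, 6.48 ± 0.45 in HCD+Gl-1, 5.39 ± 0.06 in HCD+Gl-2 and 8.17 ± 0.61 in HCD+Sim. Its HCD+Gl-2 level was thus near that of Control, and its HCD+Sim level near that of HCD. Moxd1 was 10.15 ± 0.15 in Control, 7.81 ± 0.20 in HCD, 10.37 ± 0.01 in HCD+Gl-1, 10.05 ± 0.63 in HCD+Gl-2 and 8.76 ± 2.04 in HCD+Sim, where the arrays were far apart. Abcc3 was 9.70 ± 0.04 in Control and lay between 10.42 and 10.92 in the 4 groups fed cholesterol, and Krt4 was 7.42 ± 1.45 in Control and lay between 5.67 and 5.95 in those groups.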

How the data were processed

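RNA of 45 pools from liver, kidney and brain was hybridised to Affymetrix Mouse Gene ST arrays. The deposited values are log2 intensities that the authors made with RMA and quantile normalization in oligo, adjusted with ComBat for batches not named in the sources used here, and reduced to 1 probe set per gene, the one with the highest interquartile range. Such an adjustment can shrink the spread within groups. Arrays give no read depth, so their number limits precision.

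The values were used as deposited. Group means of 15 groups were fitted to all 45 arrays with limma 3.58.1 in R 4.3.3 and moderated with eBayes, with Benjamini-Hochberg adjustment over 22080 genes, which include 30 names damaged by date conversion that are not reported. Genes were DE beyond a log2 fold change of 0.7 in either direction with an adjusted p no higher than 0.05. Differences between tissues were interaction contrasts. The fit was tested on simulated data. An exact permutation test of 3 against 3 arrays cannot go below p = 0.1, so none was run. Tables and figures used Python 3.11.15, pandas 2.3.3 and matplotlib 3.10.9. Any DE gene could be named, full statistics went to at most 15 genes in each direction and 4 per list with the smallest adjusted p, uncalled genes were named where they define a list, and other genes were picked after their values were seen. The comparison, its genes and the 66 lists (52 of gene names, 14 of symbol patterns) were chosen with earlier results of these data known. Lists were described by counts and medians without a set test. Of the 296 called genes 98 were in a list, not counting the patterns for microRNA, solute carrier and olfactory receptor names. The alternatives were fits on fewer arrays, on pools A and B, or without 1 of the 6 arrays; blocking on the pool letter; dropping dim genes; another normalization; other moderation; and limma's test against the fold threshold. Levels against Control pool C alone, and lists under each alternative, were added after seeing the data. Results for some items are not reported here.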

Additional observations from a re-analysis of the deposited data

Results flagged for a closer look

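Liver responses to the diet that differed from those of kidney or brain, by interaction contrasts at an adjusted p of at most 0.05, are given as the liver log2 fold change minus that of the other tissue. Groups of 3 arrays are too small for a test of single outlying arrays. Where a gene is given against brain or kidney alone, the difference from the other tissue did not pass. That does not show a like response there. The genes were taken from those already called in liver. That liver difference is a part of each contrast, so the choice itself favours a difference between tissues. The levels of these genes in kidney and brain are not given, so whether a gene had room to respond there cannot be told. In cytochromes the difference was 2.99 from kidney and 3.37 from brain for Cyp2b9 and 1.3 and 1.67 for Cyp3a41b. Against brain alone it was 1.49 for Cyp3a44, 0.89 for Cyp2b10, 0.74 for Cyp3a11, 1.13 for Cyp7a1, 0.63 for Akr1d1 and 0.48 for Gstm3.

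For export genes the differences from kidney and brain were 1.12 and 1.00 for Abcc3, 0.89 and 0.92 for Abcg5, and 0.81 and 0.91 for Abcg8. In lipid genes they were 0.95 and 1.1 for Srebf1, 0.69 and 0.90 for Aacs, 0.63 and 0.62 for Pparg, -1.12 and -0.97 for Sqle, and -1.61 and -1.65 for Fabp5. Against kidney alone they were 0.91 for Elovl6, 0.81 for Fitm1, 0.47 for Soat2 and -0.69 for Cyp51, and against brain alone -0.42 for Fads1 and -0.42 for Fads2.

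Among other genes the differences from kidney and brain were 1.25 and 1.2 for Adam11, 1.46 and 1.29 for Gm10639, 0.66 and 0.77 for Gm13139, 0.93 and 0.91 for 9130409I23Rik, 0.66 and 0.79 for Upp2, 0.75 and 0.73 for Spry4, 0.83 and 0.92 for Krt23, -0.71 and -0.79 for Mt1, and -1.16 and -1.13 for Krt13. Against brain alone they were -0.70 for Acta2, -1.17 for Gpr110, -1.42 for Sprr3 and -0.80 for Tgm3, and against kidney alone -1.07 for Tff3. Sprr3 and Krt13 are among the squamous genes in which 2 Control arrays stood above the rest, and the part of those arrays in the difference was not tested.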

How the results depend on the processing

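The counts of DE genes, 54, and of genes past the adjusted p, 296, moved by over 1.5 times under several alternatives. The DE count was 21 with the 15 liver arrays (15 higher, 6 lower) and 24 after quantile normalization of these 15 (18 higher, 6 lower). It was 25 with the 6 compared arrays (13 higher, 12 lower) and 98 with pools A and B alone (35 higher, 63 lower). A limma test against the fold change threshold gave 2. The adjusted p alone called 31, 35 and 49 genes with 15 arrays, with 6 arrays and after quantile normalization, and 100 against Control pool C alone. The liver to kidney difference, 58 genes, became 113 with pools A and B alone, and the liver to brain difference, 72 genes, became 658 there and 17 with the 12 arrays of liver and brain. The cause was not tested.

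With each array left out in turn the DE count ran from 48 (without Control pool B) to 78 (without Control pool C), the adjusted p count from 169 (without HCD pool A) to 254 (without Control pool C), the kidney difference from 33 (without Control pool B) to 89 (without Control pool C) and the brain difference from 43 (without HCD pool A) to 120 (without Control pool C). Of 116 called genes named or nameable by the rule, 92 lost the call with 15 liver arrays, 90 with 6 and 87 after quantile normalization. Of these 116, signs turned in 4, all against Control pool C alone: Cnfn 0.034, Defb4 0.148, Krt4 0.010 and Myh8 0.046. The uncalled Scd1 was -0.014 there.

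The pool letters do not pair the samples. Deviations of HCD and Control arrays correlated at 0.058 for pool A, 0.116 for pool B and 0.074 for pool C, and each array correlated best with its own letter, a hint from the data only. With the pool letter as a replicate block 55 genes were DE, 289 passed the adjusted p, and 63 and 76 differed from kidney and brain.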
